A study of Caenorhabditis elegans with 6 samples.

Results

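The genes described here are *oma-1*, *oma-2*, *puf-5*, *lin-41*, *mex-3*, *mex-5*, *mex-6*, *pos-1*, *spn-4* and *glp-1*, which act in oocyte maturation and in the control of maternal mRNA in *Caenorhabditis elegans*. They were chosen as a list of gene symbols, and each symbol matched 1 of the 46726 gene identifiers counted, so all 10 genes were followed. Poly(A) RNA of whole animals was sequenced from *mbl-1(tm1563)* mutants (3 biological replicates) and from the wild-type strain N2 (3 biological replicates). *mbl-1* is the only muscleblind splicing factor gene of the worm, tm1563 is a deletion allele of it that affects all its isoforms, and the mutant strain had been outcrossed to N2. Animals of both strains grew at 20 °C on HT115 bacteria with the empty RNAi vector and were collected on day 2 of adulthood, day 5 from hatching. Both strains were moved at the L4 stage to plates with 10 µM 5-fluorouracil, an inhibitor of nucleotide metabolism that stops progeny from hatching, so every value below is from drug-exposed germlines, and no untreated animals are compared here. Since the libraries are from whole animals, fewer oocytes and less RNA per oocyte cannot be told apart in these values.

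In the *C. elegans* gonad, germ cells divide at the distal end, pass through meiotic prophase and then grow into oocytes, while transcription stops in the last oocytes before fertilization. Late oocytes and early embryos therefore run on stored maternal mRNAs, and RNA-binding proteins decide when and where each of them is translated. OMA-1 and OMA-2 are related CCCH zinc finger proteins that are together required for oocyte maturation, PUF-5 is a Pumilio-family repressor of oocyte mRNAs, and LIN-41 is a TRIM-NHL protein that keeps growing oocytes from entering M phase too early. MEX-3 is a KH-domain repressor, MEX-5 and MEX-6 are related CCCH zinc finger proteins that polarize the early embryo, POS-1 is a CCCH zinc finger protein of posterior cells, and SPN-4 has an RNA recognition motif. GLP-1 is no RNA-binding protein: it is the Notch receptor that keeps germ cells dividing, and its maternal mRNA is itself under translational control.

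The 10 genes lie on autosomes I to V (WBcel235 assembly). *lin-41* (WBGene00003026, chromosome I from 9334800 to 9342496) has the longest exons, 4810 bases in 16 separate blocks, followed by *glp-1* (WBGene00001609, chromosome III from 9092241 to 9099698) with 4326 bases. *pos-1* (WBGene00004078, chromosome V from 8414086 to 8415254) has the shortest, 1117 bases in 2 blocks. The positions of the other zinc finger genes are chromosome IV from 8888976 to 8890999 for *oma-1* (WBGene00003864), chromosome V from 8029439 to 8031214 for *oma-2* (WBGene00003865), chromosome IV from 13353723 to 13356104 for *mex-5* (WBGene00003230) and chromosome II from 9524174 to 9526359 for *mex-6* (WBGene00003231). *puf-5* (WBGene00004241) lies on chromosome II from 8575541 to 8577787, *mex-3* (WBGene00003229) on chromosome I from 127285 to 134270, and *spn-4* (WBGene00004984) on chromosome V from 6783187 to 6784903. Exons of *spn-4* overlap those of *ZC404.15* by 8 bases and exons of *glp-1* overlap those of *ZK507.1* by 18 bases, in both cases on the opposite strand. The authors counted without regard to strand, so reads of these short stretches cannot be assigned to one gene. Reads that aligned to several places were left out of the gene counts, and any stretch that *oma-1* shares with *oma-2*, or *mex-5* with *mex-6*, would be undercounted.

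The libraries held 17722502 to 18125452 counts on genes in the mutants and 17574738 to 20750318 in N2. *mbl-1* itself had 3.62, 7.84 and 5.79 CPM (counts on a gene scaled to a common library total) in mutant replicates 1, 2 and 3, against 12.3, 12.2 and 13.5 CPM in N2 replicates 1, 2 and 3, with no overlap between strains. Its log2 fold change was -1.14 (standard error, SE, 0.24), called lower (edgeR adjusted p = 0.0382). That call was lost in 8 of the 17 alternatives, among them leaving out N2 replicate 1, 2 or 3 or mutant replicate 3 (edgeR adjusted p of up to 0.160) and leaving out mutant replicate 1 (log2 fold change -0.89). Mutant replicate 1 stood apart from the other libraries: it held the highest value of the 6 libraries for 27.3% of the 12335 genes tested and the lowest for 33.4%, and 7.34% of its reads aligned to several places, against 8.06% to 8.08% in the other mutant libraries and 9.74% to 9.87% in N2. Changes of the 10 genes are therefore also given without it. Over all genes, 84 (0.681%) were higher and 141 (1.14%) lower in mutants at an adjusted p under 0.05 and at least a 2-fold change, and 218 (1.77%) were higher and 442 (3.58%) lower at an adjusted p under 0.05 alone, both by the quasi-likelihood (QL) test of edgeR after Benjamini-Hochberg adjustment. With both limits, leaving out 1 library gave 33 higher and 58 lower genes without N2 replicate 1, 33 and 75 without N2 replicate 3, 134 and 234 without mutant replicate 2, 31 and 54 without mutant replicate 3, and 80 and 204 without mutant replicate 1. With no fold limit the counts ran from 36 to 896 higher and from 75 to 1090 lower over the 6 libraries left out, with 557 (4.43%) and 960 (7.64%) without mutant replicate 1. At an adjusted p under 0.05 alone, the higher genes made up 33.0% of the calls, 46.1% after scaling by library size alone and 61.3% (7.28% of genes higher and 4.59% lower) after a correction for gene length, in which the trend of counts with exon length was removed from each library.

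All 10 genes were strongly expressed in both strains, and none of them was called changed between *mbl-1(tm1563)* mutants and N2. Their mean CPM over the 6 libraries lay between percentiles 94.0 and 99.2 of the tested genes. Together they held 5434, 8608 and 7339 CPM in mutant replicates 1, 2 and 3, against 6979, 7493 and 7633 CPM in N2 replicates 1, 2 and 3, and the mutant libraries lay on both sides of N2. Log2 fold changes (mutant over N2) ran from -0.40 for *lin-41* to 0.30 for *puf-5*, with a median of -0.08, beside a median of -0.04 over all genes tested. In the QL test and in DESeq2, 0 of the 10 genes had an adjusted p under 0.05, and at an unadjusted p under 0.05 there was 1 higher gene (*puf-5*) and 0 lower genes, beside 9.81% higher and 13.9% lower of all genes tested. In 0 of the 10 genes did the 3 mutant libraries lie wholly above or wholly below the 3 N2 libraries, against 14.7% (above) and 17.9% (below) of all genes tested.

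**Figure D1:**
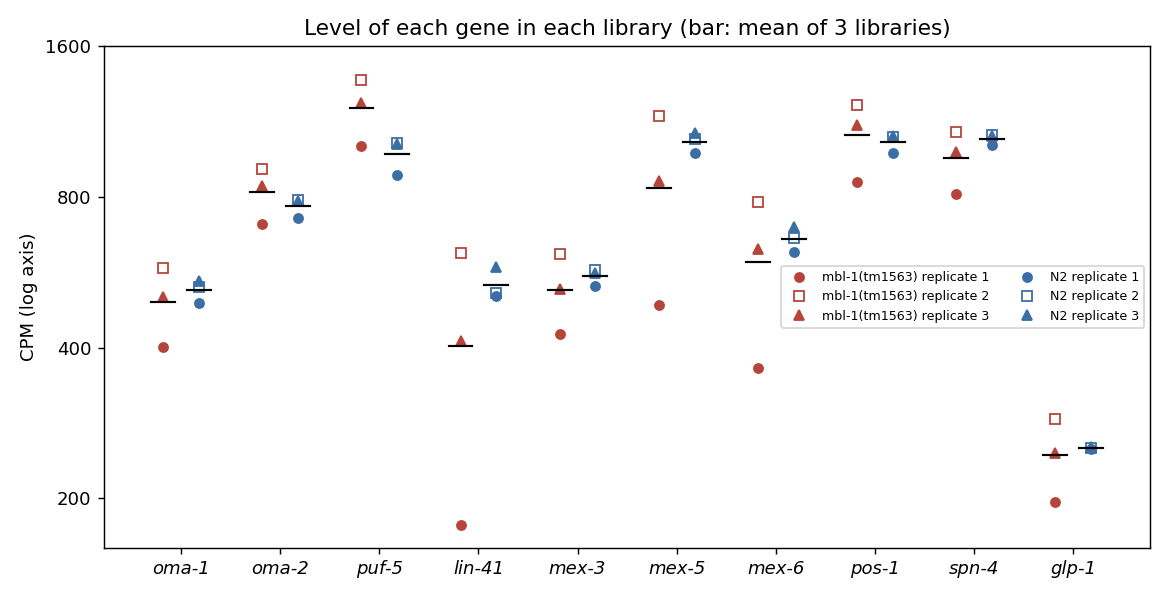
CPM of each gene (log axis) in the 3 mbl-1(tm1563) libraries (red, left of each pair) and the 3 N2 libraries (blue, right), with the mean of each strain as a bar. In every gene the mutant libraries overlap the N2 libraries, mutant replicate 2 is the highest of the 6, and the mutant libraries are spread more widely.

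Among the regulators of oocyte growth and maturation, *oma-1* and *oma-2* lay close to the N2 level. *oma-1* had 401.6, 575.9 and 504.7 CPM in mutant replicates 1, 2 and 3, against 490.0, 527.8 and 543.9 CPM in N2. Mutant replicate 1 was the lowest library and mutant replicate 2 the highest, with N2 in between (log2 fold change -0.08, SE 0.13, 95% interval -0.37 to 0.22, edgeR adjusted p = 0.736). *oma-2* had 704.7, 908.7 and 840.0 CPM in the mutants and 726.9, 786.5 and 786.1 CPM in N2, so that 2 mutant libraries lay above N2 and 1 below (log2 fold change 0.09, SE 0.10, 95% interval -0.14 to 0.33, edgeR adjusted p = 0.593). The log2 fold changes without mutant replicate 1 were 0.05 for *oma-1*, with its sign turned, and 0.19 for *oma-2*. The intervals of both genes are narrow enough that a change of 2-fold in either direction lies outside them.

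*puf-5*, whose protein holds back translation of maternal mRNAs in growing oocytes, was the gene with the highest log2 fold change of the 10. It had 1012, 1366 and 1229 CPM in mutant replicates 1, 2 and 3, against 883.0, 1025 and 1019 CPM in N2. Mutant replicates 2 and 3 lay above all N2 libraries and mutant replicate 1 fell between N2 replicates 1 and 3. The mean was 1202 ± 178 CPM in mutants and 975.9 ± 80.5 CPM in N2 (SD, n = 3 each). The log2 fold change was 0.30 (SE 0.12, 95% interval 0.02 to 0.58) and did not pass (edgeR adjusted p = 0.187). Without mutant replicate 1 the log2 fold change was 0.41 (edgeR adjusted p = 0.00712), and after the correction for gene length it was also 0.41 (edgeR adjusted p = 0.0282). Leaving out mutant replicate 1 was chosen after seeing the data. Without mutant replicate 2 the log2 fold change was 0.24 (edgeR adjusted p = 0.124). Over all 17 alternatives the adjusted p of *puf-5* ran from 0.00712 to 0.434 and was under 0.05 in 3 of them. The log2 fold change stayed between 0.23 and 0.41.

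*lin-41* was the most variable of the 10 genes among the mutant libraries. Its 176.6, 618.1 and 412.5 CPM in mutant replicates 1, 2 and 3 stood against 507.1, 512.9 and 578.1 CPM in N2. Mutant replicates 1 and 3 lay below all N2 libraries and mutant replicate 2 above them. The highest mutant library held 3.50 times the CPM of the lowest, against 1.14 times in N2. The fitted difference of -0.40 on the log2 scale (SE 0.37, 95% interval -1.27 to 0.46, edgeR adjusted p = 0.526) was -0.05 (SE 0.18, edgeR adjusted p = 0.899) without mutant replicate 1. Leaving out mutant replicate 2 moved it the other way, to -0.82 (SE 0.28, edgeR adjusted p = 0.0777), so its size was set by which mutant libraries were kept. A 2-fold lower level of *lin-41* in mutants lies within that interval.

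The regulators of early embryonic fate fell into a more variable and a less variable group. *mex-5* had 487.0, 1157 and 860.0 CPM in mutant replicates 1, 2 and 3, against 976.3, 1041 and 1074 CPM in N2, and *mex-6* had 364.9, 781.4 and 627.9 CPM in mutants, against 620.5, 660.8 and 696.0 CPM in N2. For both, mutant replicate 1 was far below the other 5 libraries, mutant replicate 2 was the highest, and mutant replicate 3 lay below all N2 libraries for *mex-5* but within them for *mex-6*. The log2 fold changes were -0.30 (SE 0.27, 95% interval -0.92 to 0.32) and -0.16 (SE 0.24, 95% interval -0.71 to 0.40), with adjusted p of 0.504 and 0.704 from the edgeR QL test. Without mutant replicate 1 they were -0.03 and 0.10, so that the sign of *mex-6* turned, and without mutant replicate 2 they were -0.57 and -0.37 (edgeR adjusted p of 0.0731 and 0.189).

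*mex-3*, which holds back *pal-1* mRNA in oocytes and anterior blastomeres, had 424.7, 615.4 and 523.6 CPM in mutant replicates 1, 2 and 3, against 531.1, 570.4 and 563.7 CPM in N2. *pos-1*, needed for the fate of posterior blastomeres, had 855.9, 1220 and 1112 CPM in mutants and 979.6, 1053 and 1059 CPM in N2. *spn-4*, needed for spindle orientation and cell fate in the early embryo, had 809.5, 1076 and 983.4 CPM in mutants and 1014, 1063 and 1059 CPM in N2. In each of these genes the means of the strains differed by less than the spread among the mutant libraries. The log2 fold changes were -0.09, 0.04 and -0.13, with SEs of 0.13, 0.13 and 0.11 and adjusted p of 0.680, 0.852 and 0.485 from the edgeR QL test. None of their 95% intervals reached beyond -0.39 or 0.34. These values were 0.04, 0.18 and -0.02 without mutant replicate 1, and without mutant replicate 2 they were -0.18, -0.02 and -0.18, so that *mex-3* and *pos-1* each turned sign in one of these fits.

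*glp-1* was the most even gene in N2, with 250.6, 251.7 and 253.7 CPM, a coefficient of variation of 0.626%. In mutant replicates 1, 2 and 3 it had 196.4, 288.3 and 246.6 CPM, a coefficient of variation of 18.9%. These libraries lay below N2 (replicates 1 and 3) and above it (replicate 2), and the log2 fold change was -0.05 (SE 0.13, edgeR adjusted p = 0.838). After the correction for gene length the log2 fold change was 0.22 at an edgeR adjusted p of 0.0407, short of 2-fold, and over all alternatives the adjusted p ran from 0.0407 to 0.969. Without mutant replicate 1 the log2 fold change was 0.09, and without mutant replicate 2 it was -0.14. Among the 3056 tested genes with the longest exons (median 3012 bases) the median log2 fold change was -0.15, against 0.04 among the 3059 with the shortest (median 668 bases). The exons of *glp-1* and *lin-41* are both longer than that upper median.

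**Figure D2:**
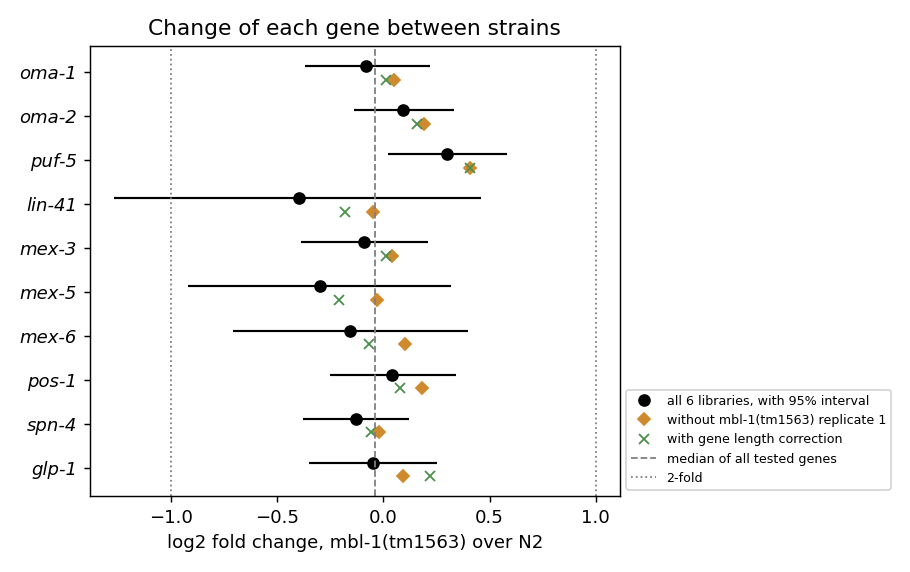
Log2 fold change of each gene, mbl-1(tm1563) over N2, with its 95% interval from edgeR (black), and the values without mutant replicate 1 (orange) and with the gene length correction (green). The dashed line marks the median of all tested genes at -0.04 and the dotted lines 2-fold changes. Without mutant replicate 1, lin-41 moves to -0.05 and mex-5 to -0.03, and puf-5 keeps the highest value.

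Compared per length, as CPM per kilobase of exon (RPKM), the 10 genes kept much of one order in both strains. *pos-1* was the most abundant, with 951.2 ± 167 RPKM in mutants and 922.6 ± 39.6 RPKM in N2 (SD, n = 3 each), and *spn-4* came next, with 628.0 ± 89 RPKM in mutants and 686.5 ± 17.9 RPKM in N2. At the low end were *lin-41*, with 83.7 ± 45.9 RPKM in mutants and 110.7 ± 8.20 RPKM in N2, and *glp-1*, with 56.3 ± 10.6 RPKM in mutants and 58.2 ± 0.365 RPKM in N2. In N2 the neighbours *mex-5* (494.3 to 544.0 RPKM), *oma-2* (470.2 to 508.7 RPKM) and *puf-5* (426.8 to 495.6 RPKM) overlapped, as did *oma-1* (272.1 to 302.0 RPKM) and *mex-3* (260.1 to 279.3 RPKM), whereas *pos-1*, *spn-4*, *mex-6* (327.4 to 367.3 RPKM), *lin-41* and *glp-1* each stood clear of their neighbours. In mutants, *pos-1* (766.2 to 1092 RPKM) still stood clear of *spn-4* (531.5 to 706.8 RPKM) and *mex-3* (208.0 to 301.4 RPKM) of *lin-41* (36.7 to 128.5 RPKM), and all other neighbours overlapped.

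Ranked within each library, *pos-1* was 1st, *spn-4* was 2nd and *oma-2* was 4th in all 6 libraries. The places of *puf-5* and *mex-5* were exchanged: *puf-5* was 3rd and *mex-5* 5th in each mutant library, while *mex-5* was 3rd and *puf-5* 5th in each N2 library. This order is set within a library and does not depend on how the libraries were scaled. In mutant replicate 2 *mex-5* (586.0 RPKM) and *oma-2* (587.8 RPKM) were nearly equal, and how often other genes exchange places between strains was not counted.

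The related pairs showed a comparison of the same kind. The ratio of *oma-1* to *oma-2* CPM was 0.570, 0.634 and 0.601 in mutant replicates 1, 2 and 3, against 0.674, 0.671 and 0.692 in N2. The ratio of *mex-5* to *mex-6* CPM was 1.33, 1.48 and 1.37 in mutants, against 1.57, 1.57 and 1.54 in N2. For both pairs every mutant library had a lower ratio than every N2 library, with log2 differences of -0.18 and -0.17. Of all single genes tested, 14.7% lay wholly above N2 and 17.9% wholly below it. How many gene pairs separate the strains by their ratio was not counted. With 3 libraries against 3, the two-sided exact permutation test gave p = 0.1 for each of these 2 ratios (0.1 after Benjamini-Hochberg adjustment), which is the smallest p that this design allows, so the difference did not pass. The ratios need no scaling between libraries, but reads that aligned to both genes of a pair are missing from them, and their part in these ratios was not tested.

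**Figure D3:**
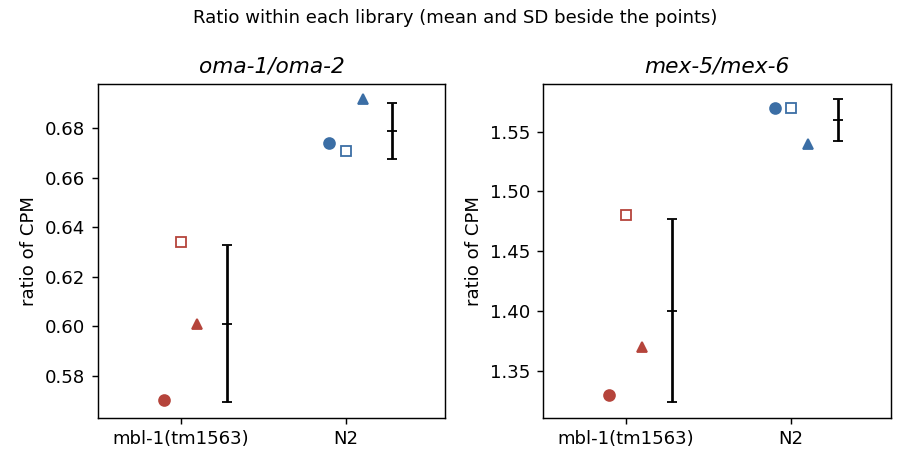
Ratio of CPM of oma-1 to oma-2 (left) and of mex-5 to mex-6 (right) in each library, with mbl-1(tm1563) in red and N2 in blue, and the mean and SD of each strain beside the points. The vertical axes do not start at 0. Mutant ratios lie between 0.570 and 0.634 and between 1.33 and 1.48, below the N2 ratios in both panels.

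What the 10 genes shared was their pattern over the mutant libraries. In all 10 genes mutant replicate 2 was the highest of the mutant libraries, replicate 3 came next and replicate 1 was the lowest, an order that 31.0% of all tested genes had. Mutant replicate 2 was the highest of all 6 libraries in all 10 genes, against 18.4% of tested genes, and mutant replicate 1 the lowest of all 6 in 9 of them, against 33.4% of tested genes. The exception was *puf-5*, whose lowest library was N2 replicate 1. The median coefficient of variation of the 10 genes was 18% in mutants and 4.66% in N2, beside 10.2% in mutants and 3.25% in N2 over the 738 tested genes with a mean CPM at or above the lowest of the 10. Without mutant replicate 1, a setting chosen after seeing the data, the mutant medians were 10.2% for the 10 genes and 4.61% for the 738. *lin-41* (54.9%), *mex-5* (40.2%) and *mex-6* (35.6%) varied most among mutant libraries, and *oma-2* (12.7%), *spn-4* (14.2%) and *puf-5* (14.8%) least. Because the genes share the libraries, their common pattern is 1 observation of 3 mutant libraries and not 10 separate ones.

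**Figure D4:**
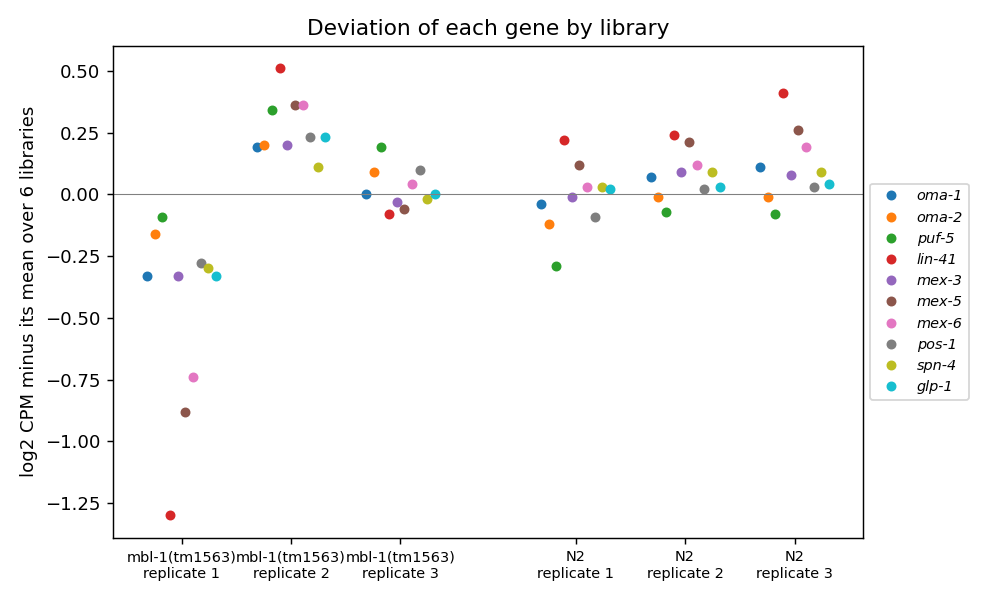
Log2 CPM of each gene minus its mean over the 6 libraries, by library, with mbl-1(tm1563) replicates on the left and N2 replicates on the right; the genes are set slightly apart for legibility. All 10 genes lie below 0 in mutant replicate 1 (from -1.3 for lin-41 to -0.09 for puf-5) and above 0 in mutant replicate 2 (from 0.11 for spn-4 to 0.51 for lin-41).

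Many other genes followed the same pattern. Among 7184 tested genes with a mean of at least 10 CPM, 1284 (17.9%) had a Pearson r above 0.9 with the mean profile of the 10 genes over the 6 libraries, which is a description of shared libraries and not a test. The 5 most alike (r from 0.998 to 0.999) were *rnp-8*, which encodes a partner of the GLD-2 poly(A) polymerase, *cash-1*, *slc-30A5*, *W03F8.4* and *spd-2*, which encodes a centrosome protein. *rnp-8* had 116.6, 217.2 and 175.7 CPM in mutant replicates 1, 2 and 3, against 174.2, 182.9 and 191.1 CPM in N2, the same order of libraries as *oma-1*. Within the list itself, the r of a gene with the mean of the others ran from 0.38 for *puf-5* and 0.78 for *oma-2* to 0.99 for *oma-1*, *mex-3* and *mex-6*.

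Genes that work with the 10 in the germline were followed as 5 lists with 100 genes in all, chosen by function. All 100 were tested, and 0 were called in either direction with both limits by the edgeR QL test or DESeq2. At an adjusted p under 0.05 alone the QL test gave 0 and DESeq2 gave 1 (*ife-3*, higher), beside 3.53% of all genes higher in DESeq2, and at an unadjusted p under 0.05 in the QL test there were 2 higher and 2 lower, beside 9.81% and 13.9% of all genes tested. After the correction for gene length 5 of the 100 had an adjusted p under 0.05 in the QL test, all higher (*ife-3*, *glh-3*, *rme-2*, *zif-1* and *cul-2*, named because of this count), beside 7.28% of all genes. Log2 fold changes ran from -0.58 to 0.26 with a median of -0.09, against -0.04 over all genes tested. The median was -0.09 for 29 other germline RNA regulators, -0.10 for 17 germ granule and small RNA genes, -0.04 for 13 GLP-1/Notch pathway genes, -0.11 for 20 genes of oocyte maturation and the oocyte-to-embryo transition, and -0.05 for 21 maternal genes of embryo polarity and fate. Calls at an adjusted p under 0.05 alone depended on the mutant libraries kept. Without mutant replicate 2, in this order of lists, 6, 2, 2, 3 and 2 genes were lower and 1 RNA regulator was higher. Of all 12613 genes in that fit, 1090 were lower and 896 higher. Without mutant replicate 1, 2, 1, 2, 2 and 1 were higher and 1 oocyte maturation gene was lower, beside 4.43% and 7.64% of all genes.

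In the list of RNA regulators the smallest p belonged to *ife-3*, which encodes an eIF4E cap-binding protein. It had 535.8, 487.6 and 494.2 CPM in mutant replicates 1, 2 and 3, against 419.0, 422.3 and 435.8 CPM in N2. All mutant libraries lay above N2, as for 3 of the 29 genes in this list and 14.7% of all genes. The log2 fold change of 0.25 (SE 0.07) did not pass (edgeR adjusted p = 0.0822). Here mutant replicate 1 was the highest of the mutant libraries, unlike in the 10 genes. *pie-1*, whose protein keeps transcription off in germline blastomeres, had a difference of 0.26 on the log2 scale (SE 0.09, edgeR adjusted p = 0.152), with no overlap between strains. *gls-1*, which encodes a partner of GLD-3, had 111.0, 264.4 and 196.1 CPM in mutants and 252.0, 261.9 and 279.9 CPM in N2, with the same low replicate 1 as *lin-41*.

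The germ granule helicase genes *glh-1* and *glh-2* lay lower in every mutant library than in every N2 library. This held for 3 of the 17 genes in that list and 17.9% of all genes. Their log2 fold changes were -0.14 and -0.15 (adjusted p of 0.239 and 0.258 from the edgeR QL test). After the correction for gene length these values were 0.03 and 0.06. For *meg-1*, a maternal germ plasm gene, the log2 fold change was -0.39 (SE 0.22). In the Notch pathway the smallest p belonged to *sel-8*, a nuclear cofactor of the receptor, with 25.7 ± 5.95 CPM in mutants and 33.8 ± 2.50 CPM in N2 (SD, n = 3 each) and an adjusted p of 0.191 from the edgeR test. The ADAM protease genes *sup-17* and *adm-4* had log2 fold changes of -0.26 and 0.09, and of -0.06 and 0.24 after the correction for gene length.

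Among genes of oocyte maturation, *kin-1* and *kin-2*, which encode the catalytic and the regulatory subunit of protein kinase A, had log2 fold changes of -0.54 and -0.56 (adjusted p of 0.183 and 0.217 from the edgeR QL test), and -0.23 and -0.44 after the correction for gene length. *kin-1* had 13.8, 26.9 and 23.1 CPM in mutant replicates 1, 2 and 3, against 31.1, 30.4 and 31.1 CPM in N2, all mutant libraries below all N2 libraries. *zif-1*, which encodes the ubiquitin ligase adaptor that marks zinc finger proteins such as PIE-1 and MEX-5 for degradation in somatic blastomeres, had 154.6 ± 13.5 CPM in mutants and 134.8 ± 9.32 CPM in N2 (SD, n = 3 each). In the polarity list, *mom-2* (a Wnt ligand), *pop-1* (a TCF transcription factor) and *par-3* (an anterior polarity protein) had log2 fold changes of 0.15, -0.16 and -0.29, none of which passed, and of 0.22, -0.01 and 0.02 after the correction for gene length.

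Markers of other cells in the whole-animal lysates were summed in the same way. The sums of the meiotic prophase and DNA replication lists varied little among mutant libraries. The 24 meiotic prophase genes held 1984, 2179 and 2148 CPM in mutant replicates 1, 2 and 3, against 2016, 2013 and 2023 CPM in N2, and 16 DNA replication genes held 5088 to 5424 CPM in mutants and 4990 to 5518 CPM in N2. The highest mutant library held 1.10 and 1.07 times the lowest in these lists, against 1.58 times for the 10 genes and 1.47 times for the other RNA regulators. This ratio was 1.44, 1.33, 1.29 and 1.27 for the GLP-1/Notch, oocyte maturation, germ granule and polarity lists. Among somatic lists it ran from 1.06 for neuron to 1.8 for intestine markers, which include the vitellogenin genes. Without mutant replicate 1 it was 1.17 for the 10 genes, and the other lists were not compared in this way. The median log2 fold changes of the meiotic prophase and DNA replication lists were 0.06 and -0.02. After the correction for gene length they were 0.14 and 0.11, beside a median of 0.05 over all genes. Of the 24 meiotic prophase genes, 9 had all mutant libraries above all N2 libraries (14.7% of all genes did) and 5 were higher at an unadjusted p under 0.05 (9.81% of all genes). At an adjusted p under 0.05, 0 of them passed in the QL test, 1 was higher in DESeq2 and 6 were higher in the QL test after the correction for gene length (7.28% of all genes).

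Sperm markers were close to the floor, with 6 of 19 genes tested and a summed 22.2 to 26.5 CPM in mutants and 22.7 to 23.4 CPM in N2. Early zygotic markers, which are transcribed in embryos, were at a similar low level. Of the 15, 10 were tested, and all 10 had log2 fold changes below 0 (55.2% of all tested genes did), with a median of -0.65. Their sum was 25 to 29.7 CPM in mutants and 35.3 to 44.6 CPM in N2. By the edgeR QL test 0 of them passed an adjusted p of 0.05, 4 were lower at an unadjusted p under 0.05 (13.9% of all genes), and DESeq2 called 0. With mutant replicate 1 left out there was 1 called lower with both limits, and 1 of the 15 was at 0 in all mutant libraries. The part that embryos inside the animals have in the levels of the 10 genes was not tested.

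The 11 intestine markers held 31871, 57277 and 44053 CPM in mutant replicates 1, 2 and 3, against 79809, 75336 and 84574 CPM in N2. They were the vitellogenin genes *vit-1* to *vit-6* together with *elt-2*, *elt-7*, *ges-1*, *act-5* and *ifb-2*. How much of these sums came from the vitellogenin genes was not counted, so the sums cannot be read as intestinal RNA in general. Mutant replicate 1 was the lowest and replicate 2 the highest of the mutant libraries, the same order as in the 10 genes, but here all mutant libraries lay below N2. With both limits 1 of the 11 was called lower (1.14% of all genes), and 0 were called without N2 replicate 1, without N2 replicate 3, without mutant replicate 3 or after the correction for gene length, and 3 without mutant replicate 2. At an adjusted p under 0.05 alone 2 were lower in the QL test (3.58% of all genes) and 6 in DESeq2 (4.9%), and 8 had all mutant libraries below all N2 libraries (17.9%). The median log2 fold change of the list was -0.74, and -0.45 after the correction for gene length. Under that correction 6 of the 11 were lower at an adjusted p under 0.05 in the QL test (4.59% of all genes). By the same rule 7 were lower without mutant replicate 1 (7.64% of all genes) and 6 without mutant replicate 2 (1090 of 12613 genes). There was 1 without N2 replicate 2, and 0 without N2 replicate 1, N2 replicate 3 or mutant replicate 3. The 8 body wall muscle markers and 9 neuron markers held 923.5 to 1123 CPM and 254.4 to 269.1 CPM in mutants, against 1184 to 1361 CPM and 284.8 to 291.4 CPM in N2. For body wall muscle markers the median log2 fold change was -0.53, and 2 were lower at an adjusted p under 0.05 in the edgeR QL test. After the correction for gene length the median was -0.18 with 0 lower. Neuron markers had a median of -0.36, with 3 of the 9 lower by the same rule (3.58% of all genes). After the length correction their median was -0.28 with 2 lower (4.59% of all genes). The strains did not overlap for 6 neuron markers with mutants lower and for 1 with mutants higher (17.9% and 14.7% of all genes). Sums over 5 somatic gonad markers were 128.9 to 138.0 CPM in mutants and 151.4 to 166.8 CPM in N2, over 6 hypodermis markers 235.0 to 281.3 CPM in mutants and 280.1 to 303.4 CPM in N2, and over 4 pharynx markers 18.4 to 28.3 CPM in mutants and 35.8 to 41.4 CPM in N2. In the QL test 1 somatic gonad marker was lower at an adjusted p under 0.05. For pharynx 0 passed, though the 3 tested genes each had all mutant libraries below N2. Without N2 replicate 1, 0 of the muscle, neuron and somatic gonad markers passed. Of the neuron markers, 3 were lower by this rule without mutant replicate 1 and 2 without mutant replicate 2. There was 1 each without N2 replicate 2 and N2 replicate 3, and 0 without mutant replicate 3. For hypodermis the median log2 fold change had the other sign than the sum, 0.43 with 4 of 5 tested genes above 0, and it was 0.02 without N2 replicate 3 and 0.01 over the 3 genes with at least 10 counts in every library. Of the sperm markers 2 were at 0 in all mutant libraries and 3 in all N2 libraries, and in the tissue lists of this paragraph 0 were. The part of these tissues in the values of the 10 genes was not tested.

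**Figure D5:**
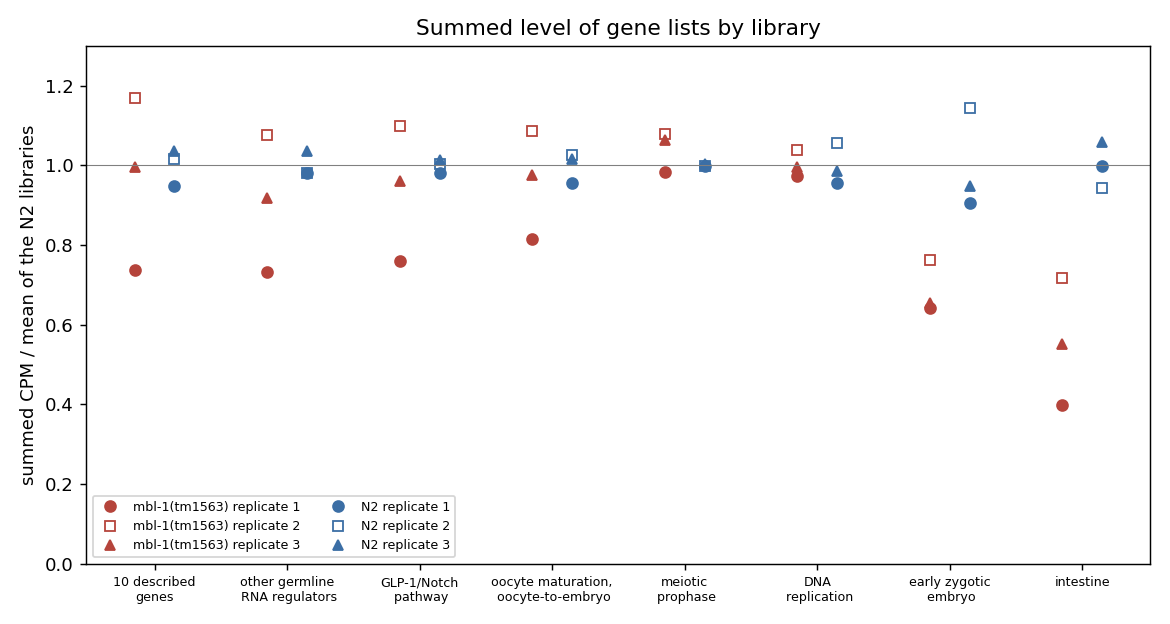
Summed CPM of 8 gene lists in each library, divided by the mean of the 3 N2 libraries for that list, with mbl-1(tm1563) in red left of N2 in blue. The 10 described genes, the other RNA regulators, the Notch pathway and the oocyte maturation genes have mutant replicate 1 lowest and replicate 2 highest, meiotic prophase and DNA replication genes vary little, and intestine and early zygotic genes lie below N2 in every mutant library.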

How the data were processed

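Whole-animal RNA of 3 *mbl-1(tm1563)* and 3 N2 replicates was sequenced on one lane. The authors used a stranded poly(A) kit, aligned the reads with STAR to the WBcel235 reference transcriptome and counted them with HTSeq without regard to strand, and the deposited values are raw counts per gene (tool versions are not given in the sources used here). Reads aligned to several places (7.34% to 9.87%), overlapping several genes (0.82% to 1.01%) or outside genes (0.46% to 0.58%) were kept out of library totals and tests. Depth was 17574738 to 20750318 counts.

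The test across genes used edgeR 4.0.16 under R 4.3.3: filterByExpr (minimum count 10, minimum total 15, 12335 genes kept), TMM scaling (factors 0.963 to 1.09), quasi-likelihood test with robust estimation, strain as the only factor, Benjamini-Hochberg adjustment over all genes tested. Calls needed an adjusted p below 0.05 together with a 2-fold change or more. CPM use the TMM-scaled total, and RPKM divide CPM by the union of exons of annotation release 115, which holds 99.2% of the identifiers. The fits were tested on simulated data. No pair of libraries differed by sampling noise alone (lowest chi-square per degree of freedom 3.82).

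The genes and lists were chosen with earlier results of these data known. Named outside the 10 genes are *mbl-1*, the 3 genes with the smallest p in each of the 5 germline lists, and the 5 genes most alike in profile. Alternatives were DESeq2 1.42.0, scaling by upper quartile, by RLE or by library size alone, other filters (no filter, or at least 10 counts in every library), no robust estimation, no fold limit, a replicate block, a correction for gene length (lowess span 0.5, prior count 2) alone and with the block, and each library left out.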

Additional observations from a re-analysis of the deposited data

How the results depend on the processing

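Under all 17 alternatives 0 of the 10 genes were called, with both limits except in the setting with no fold limit. That setting is the main fit again and repeats its log2 fold changes and adjusted p. At an adjusted p under 0.05 alone there were 2 higher members after the correction for gene length (*puf-5* and *glp-1*), beside 7.28% of all genes. With the replicate block and the length correction there was 1 (*puf-5*), beside 656 of 12229 genes. Leaving out 1 library gave 0 to 1 (*puf-5* without mutant replicate 1, beside 4.43% of all genes). The signs of *oma-2*, *puf-5*, *lin-41*, *mex-5* and *spn-4* were kept under all 17 alternatives, and those of *oma-1*, *mex-3*, *mex-6*, *pos-1* and *glp-1* under 13 to 16. The cause was not tested. The median of the 10 genes lay between -0.17 and 0.07. Over all genes the call limits gave 84 higher and 141 lower, 218 and 442 with no limit on the fold change, and 31 to 134 and 54 to 234 with one library left out. Deviations from the strain mean correlated by 0.111, 0.00812 and 0.13 between libraries with the same number. N2 replicates 1 and 3 were each most alike to the mutant library of their number, and N2 replicate 2 to mutant replicate 1 (0.0413). The labels give only a number, so whether libraries of the same number were handled together cannot be told. With the replicate block 60 genes were called higher and 108 lower, 0 of them among the 10, and at an adjusted p under 0.05 alone 112 and 270. The 10 genes had 3412 counts or more in each library, and the sperm and early zygotic markers, at low levels, are counted less precisely.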
